A study of Mus musculus with 12 samples.

Results

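The Ly49 receptor genes Klra1 to Klra10 were followed through open-chromatin peak lists of mouse splenic natural killer (NK) cells. All 10 members lie on chromosome 6 in mm10 and are read from the minus strand. They were chosen by name, and each deposited interval within 50 kb of a gene body was given to its nearest protein-coding gene. This gave the members 347 of the 603679 deposited intervals, and 30 of the 45082 regions built from them. The assay was ATAC-seq, in which a transposase cuts accessible DNA, on 100000 cells per library. There were 4 groups of 3 libraries each. WT libraries came from Reg-1 fl/fl cells, which carry the floxed Regnase-1 (Zc3h12a) gene intact. KO libraries came from Reg-1ΔNK cells, in which that gene was deleted in NK cells. Both genotypes were sampled as unstimulated controls and after IL-12/18, a pair of cytokines known for inducing interferon-gamma in NK cells. The Cre driver, the mouse strain, age and sex and the length of stimulation are not given in the sources used here. Nor do the labels say whether the 3 libraries of a group came from separate animals, so p-values measure the spread between libraries, which may be technical.

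Ly49 receptors are lectin-like proteins on mouse NK cells that bind MHC class I or related molecules. Most are inhibitory: a motif in their tail recruits the phosphatases SHP-1 and SHP-2 when a self molecule is met. Ly49D (Klra4) and Ly49H (Klra8) are activating and signal through the adaptor DAP12. Each NK cell carries its own combination of receptors, so a bulk library averages over cells with different sets. Fewer cells with an open region and less opening per cell cannot be told apart here. The genes arose by duplication, and a short read can match more than one copy, so the placement of a peak between near-identical copies is uncertain.

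That likeness is visible in the promoter windows that RefSeq lists for GRCm38.p6 (mm10), each running from 250 bases before to 50 after a start site. All 10 genes matched the table, with 12 windows in all. Klra9 (Ly49I) and Klra3 (Ly49C) had the closest pair, 96.4% identical over 281 aligned bases. Their windows, chr6:130193063-130193362 and chr6:130337577-130337876 on the minus strand, are shown to make the copy problem concrete. Capitals mark the longest exact run they share, 75 bases:
Klra9: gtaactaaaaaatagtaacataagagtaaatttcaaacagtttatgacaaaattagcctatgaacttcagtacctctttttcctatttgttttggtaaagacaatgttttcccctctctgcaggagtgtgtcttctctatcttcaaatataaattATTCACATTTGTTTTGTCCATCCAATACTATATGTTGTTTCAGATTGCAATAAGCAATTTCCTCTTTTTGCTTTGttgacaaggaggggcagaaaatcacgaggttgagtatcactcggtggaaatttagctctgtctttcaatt
Klra3: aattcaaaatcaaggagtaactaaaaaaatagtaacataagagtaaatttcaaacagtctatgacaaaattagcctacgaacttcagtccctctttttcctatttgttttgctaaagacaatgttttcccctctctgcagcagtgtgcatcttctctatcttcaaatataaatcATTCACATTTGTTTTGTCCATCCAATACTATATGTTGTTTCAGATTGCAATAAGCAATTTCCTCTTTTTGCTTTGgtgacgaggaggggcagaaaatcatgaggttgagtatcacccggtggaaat
No read inside that capital run can be assigned to one of the 2 genes by sequence alone. Klra6 and Klra3 were 93.0% identical and Klra5 and Klra6 90.8%, whereas the window of Klra1 shared no exact run longer than 9 bases with any other.

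Only 2 of the 12 windows were overlapped by a deposited interval in most libraries. The window of Klra1 (chr6:130386825-130387124, minus strand) was overlapped in 11 of 12 libraries and that of the second start listed for Klra7 (chr6:130231638-130231937, minus strand) in 10 of 12. The windows of Klra4 and Klra9 were overlapped in 1 library each and the other 8 in none. The 2 open windows are shown with their motif matches in capitals:
Klra1: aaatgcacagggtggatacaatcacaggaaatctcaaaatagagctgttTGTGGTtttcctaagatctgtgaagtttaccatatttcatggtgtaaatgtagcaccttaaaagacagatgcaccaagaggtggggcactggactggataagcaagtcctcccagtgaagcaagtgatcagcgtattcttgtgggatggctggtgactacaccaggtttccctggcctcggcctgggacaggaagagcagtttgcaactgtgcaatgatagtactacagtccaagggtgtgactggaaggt
Klra7 start 2: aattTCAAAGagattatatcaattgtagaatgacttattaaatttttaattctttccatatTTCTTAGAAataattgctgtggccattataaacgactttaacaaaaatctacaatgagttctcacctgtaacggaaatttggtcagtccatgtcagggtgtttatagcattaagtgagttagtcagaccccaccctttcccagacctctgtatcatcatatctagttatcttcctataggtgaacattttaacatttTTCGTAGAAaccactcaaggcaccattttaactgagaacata
The capitals in Klra1 are 1 match to TGTGGT, the core recognised by RUNX factors, 201 bases before the start. Those in Klra7 are 1 match to CTTTGA, read on the opposite strand, a TCF/LEF core, 246 bases before the start, and 2 to TTCNNNGAA, the STAT core. Both strands were searched and no match overlapped another. Of all 32851 promoter windows, 16.8% held the RUNX core, 16% the TCF/LEF core and 8.3% the STAT core. Among the 12 Ly49 windows these numbers were 1, 3 and 3. The AP-1 core TGANTCA was in 1 and the ETS core GGAAGT in none, against 7.8% and 23.8% of all windows. A match is a description of the letters and not of binding.

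Away from the starts, the peaks formed a repeated layout. 17 of the 30 regions lay upstream of their gene, 5 inside a gene body and 8 downstream. Klra5, Klra6, Klra7, Klra10 and Klra3 each had deposited summits between 4 and 5 kb upstream of the gene's start-side end in all 6 control libraries, and Klra9 had its own between 3 and 4 kb. Distances here run from that end, and some listed starts lie inside it. The offset was 1.26 kb at Klra9, 1.72 kb at Klra10 and 1.64 kb for the second start of Klra7. Klra8 had a region 6.74 kb upstream, Klra1 a region over its start, and Klra2, which sits apart from the rest of the cluster, 2 regions 14.5 and 16.3 kb upstream. Klra4 had only a region within its body. Over the 12 libraries Klra9 had the most deposited intervals, 63, followed by Klra3 with 62, Klra7 with 49, Klra5 with 39, Klra8 with 34, Klra6 with 25, Klra1 and Klra2 with 24 each, Klra10 with 17 and Klra4 with 10. Small shifts in interval edges can move a count: in WT stimulated library 3 the peak 8.41 kb upstream of Klra6 was counted under Klra4. Klra2 had 2 intervals in every library.

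**Figure D1:**
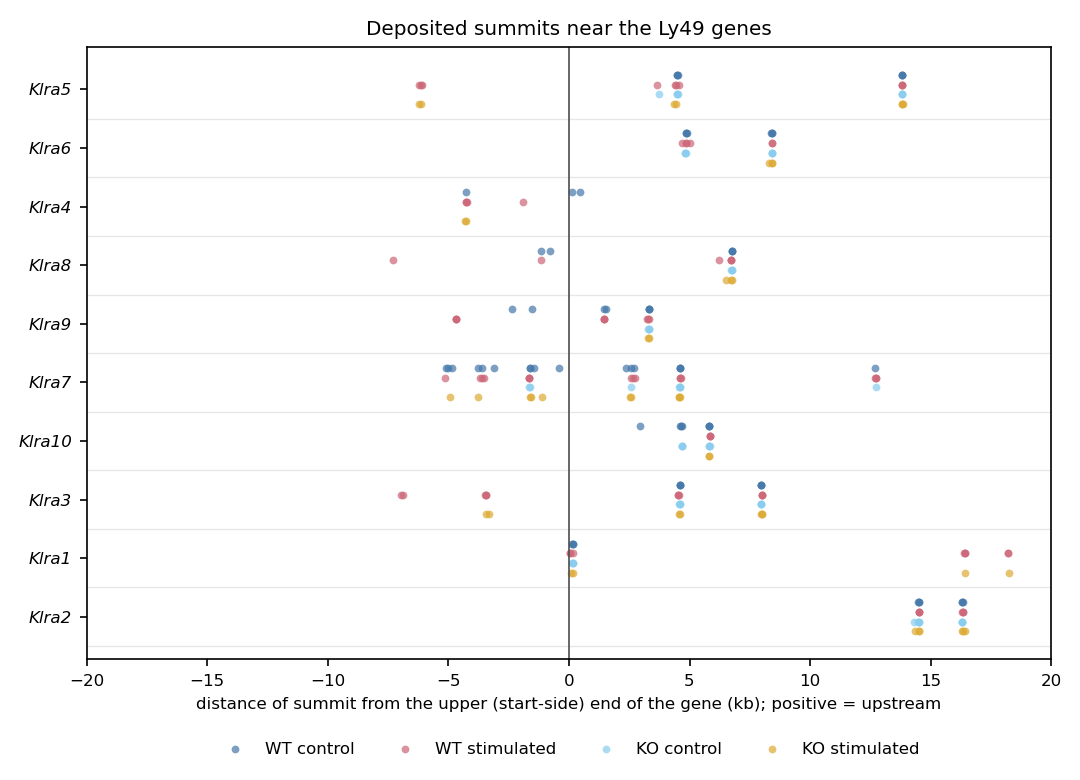
Deposited summits of the 12 libraries plotted by distance (kb) from the start-side end of each Ly49 gene, with 1 line of points per group and positive values upstream. Points within 20 kb are drawn. Control points stack between 4 and 5 kb upstream of Klra5, Klra6, Klra7, Klra10 and Klra3, and the 2 summits of Klra2 recur in every group.

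Libraries were compared by rank. The 35110 strongest distinct intervals of each list, the length of the shortest list, were ranked by the deposited −log10 q. The rank percentile of a region is 100 for the strongest interval of a library and 0 where none of these intervals touched it, which is called "not called" below. Distinct intervals per library ranged from 35110 to 63128. KO stimulated library 1 stood apart: at the end of its equal list the −log10 q was 1.31. It was 4.60 in KO stimulated library 2, next to 5.76 in WT control library 1, and 8.84 to 27.05 in the other libraries. All regions together averaged a rank percentile of 37.5 to 38.2 in every group. NK markers were open in all groups: each of 8 genes, among them Ncr1 and Eomes, had a region. Of B cell markers, Cd22 and Pax5 had regions and Cd79a, Cd79b and Ms4a1 none. Of T cell markers, Cd3d, Cd3e and Cd5 had regions, the strongest of each with a mean rank percentile of 93.3, 66.7 and 58.1, and Cd3g, Cd4, Cd8a and Cd8b1 had none. Myeloid and erythroid markers had regions at 3 of 6 and 3 of 5 genes.

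Stimulation lowered upstream regions of Klra5, Klra6, Klra9, Klra3, Klra10 and Klra1, and raised that of Klra8 and a far region of Klra5. Of the 23 Ly49 regions that could be tested on rank, 8 were lower in stimulated libraries and 6 higher at an adjusted p below 0.05 (exact permutation of treatment labels within genotype, two-sided, 400 rearrangements, Benjamini-Hochberg adjustment over all regions tested). Over the 38050 regions tested in the genome, 29.1% were lower and 22.4% higher, so the Ly49 counts were near the background. The higher calls held less well than the lower: they became 1 higher and 5 lower with lists of the 17555 strongest intervals, 1 and 7 with calls covering 50% of a region, and 2 and 8 with summit windows. The median difference, stimulated minus control, was −0.31 percentile points over the 30 regions and −1.59 over all 45082. All 8 lower regions were upstream of a gene or over its start, while 3 higher regions were upstream, 2 in gene bodies and 1 downstream of Klra9.

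Klra9, the gene of the inhibitory receptor Ly49I, had the largest fall. The region 3.32 kb upstream (chr6:130197463-130198210) had rank percentiles of 63.9, 66.7 and 63.9 in WT control libraries, 58.6, 48.0 and 55.3 in KO control, 1.98, 4.82 and 0 in WT stimulated and 0, 5.37 and 0 in KO stimulated. The groups did not overlap: the highest stimulated library stood far below the lowest control library. The difference was −57.4 points (adjusted p = 0.0148, exact permutation). In the deposited lists the peak did not vanish from stimulated cells. It was listed in 5 of 6 stimulated libraries, at a deposited fold over background of 4.02 to 7.42, against 12.4 to 28.4 in controls.

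Klra3, the gene of the inhibitory receptor Ly49C, showed the same course at 4.58 kb upstream (chr6:130341749-130342758). Its percentiles were 68.4, 71.3 and 69.0 in WT control, 61.6, 54.8 and 54.6 in KO control, 11.2, 28.3 and 11.5 in WT stimulated and 0, 30.4 and 0 in KO stimulated. Every stimulated library was below every control library, by −49.7 points in the mean (adjusted p = 0.0148, exact permutation). A second region 7.98 kb upstream (chr6:130345190-130345931) was the strongest of Klra3 and moved less. Control libraries stood at 55.3 to 70.5 and stimulated libraries at 40.4 to 54.9, a difference of −16.1 points without overlap (adjusted p = 0.0148, exact permutation).

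Klra6, the gene of the inhibitory receptor Ly49F, had the same pair. At 4.86 kb upstream (chr6:130031536-130032318) WT control libraries stood at 54.3, 60.3 and 46.3 and KO control libraries at 41.0, 32.6 and 32.0, and none of the 6 stimulated libraries was called. This was the one Ly49 region called in all libraries of 1 treatment and none of the other (rank difference −44.4, adjusted p = 0.0148; presence adjusted p = 0.0169, both exact permutation). A weak peak at fold 2.63 to 4.66 was still listed in the 3 WT stimulated libraries and in none of the KO stimulated libraries. At 8.41 kb upstream (chr6:130034685-130035661) controls stood at 52.0 to 61.9 and stimulated libraries at 16.4 to 49.2, a difference of −17.8 without overlap (adjusted p = 0.0148, exact permutation).

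Klra5 encodes Ly49E, an inhibitory receptor known from fetal NK cells. At 4.46 kb upstream (chr6:129917465-129918395) WT control libraries stood at 63.1, 59.2 and 55.2 and KO control at 44.5, 39.1 and 49.1. Of the stimulated libraries, KO library 2 stood at 10.9 and the other 5 were not called. The rank difference was −49.9 points (adjusted p = 0.0148) and the presence difference also passed (adjusted p = 0.0335, both exact permutation). A further region 13.8 kb upstream of Klra5 (chr6:129926349-129927544), between Klra5 and Klra6, moved the other way. It stood at 66.1, 45.3 and 46.7 in WT control, 57.7, 49.9 and 52.0 in KO control, 73.4, 68.3 and 69.1 in WT stimulated and 73.8, 71.0 and 71.7 in KO stimulated. Every stimulated library was above every control library, by 18.3 points in the mean (adjusted p = 0.0148, exact permutation).

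Klra1 encodes Ly49A, the receptor through which inhibition by MHC class I was first described on NK cells. Its region over the start (chr6:130386709-130387708), which holds the printed window, stood at 68.7, 56.7 and 58.2 in WT control and 50.2, 48.0 and 41.6 in KO control. KO stimulated library 1 stood at 10.9 and the other 5 stimulated libraries were not called, a difference of −52.1 (adjusted p = 0.0148; presence adjusted p = 0.0335, both exact permutation). The deposited fold was 12.4 to 23.6 in controls and 2.79 to 6.46 in the 5 stimulated libraries that listed the peak. KO stimulated library 1, which was called, listed it at 3.57, and the WT stimulated libraries, which were not, at 5.59 to 6.46. Their equal lists ended at a −log10 q of 1.31 and of 16.58 to 27.05, so the calls do not follow the deposited fold. Klra1 is also the member whose window was least like any other window. The likeness of its region to other places in the cluster was not measured.

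**Figure D2:**
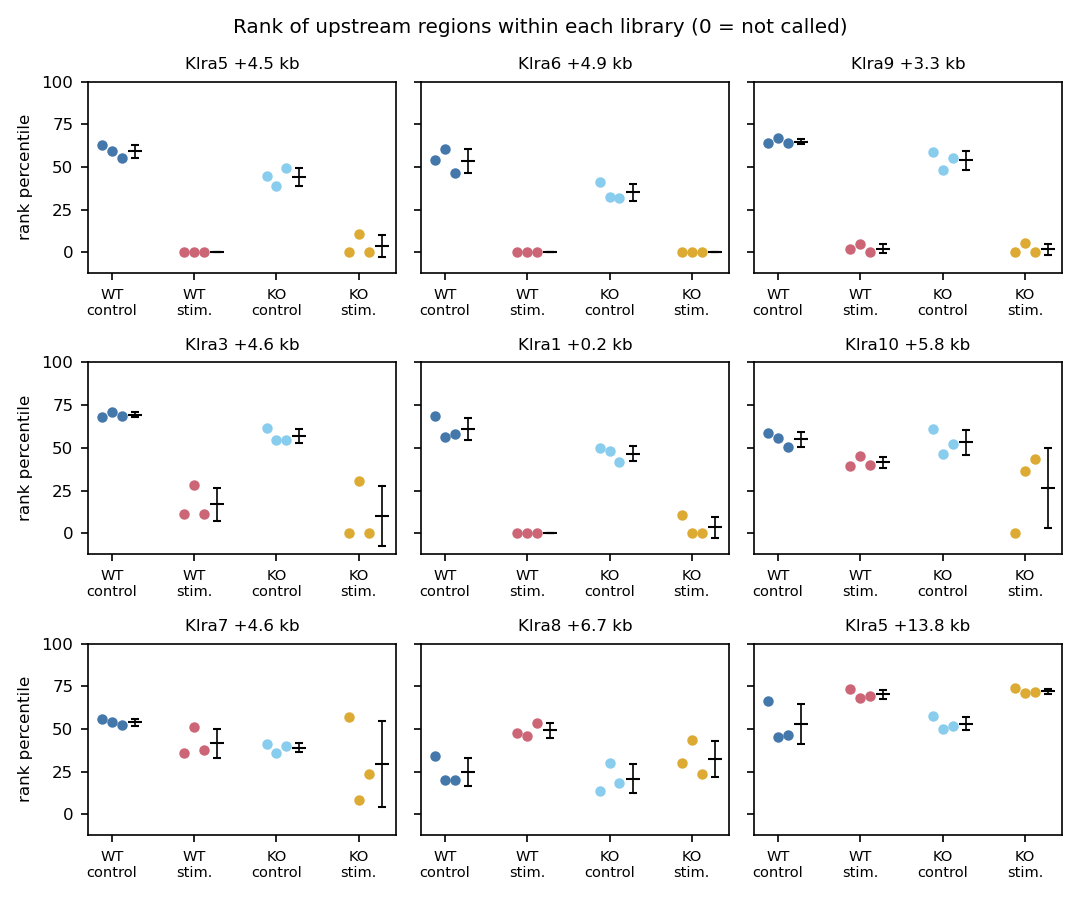
Rank percentile (0 for not called) of 9 upstream regions in each of the 12 libraries, 3 points per group with the mean and 1 SD beside them. Panels are titled by gene and distance upstream in kb. In the first 5 panels every stimulated library lies below every control library, at 0 to 10.9 for Klra5, Klra6, Klra9 and Klra1 and at 0 to 30.4 for Klra3. Klra7 overlaps between treatments, and Klra8 and the far region of Klra5 rise.

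Klra10 (Ly49J) and Klra7 (Ly49G) differed from this in degree. The Klra10 region (chr6:130288029-130289953) held 2 summits. The one between 4 and 5 kb upstream was listed in all 6 control libraries, at fold 5.12 to 10.3, and in none of the 6 stimulated libraries. The one between 5 and 6 kb was listed in all 6 controls at 11.9 to 20.8 and in 5 stimulated libraries at 7.03 to 17.7. The rank of the whole region was 46.6 to 61.2 in controls and 0 to 45.4 in stimulated libraries, a difference of −20.01 (adjusted p = 0.0148, exact permutation). Without KO stimulated libraries 1 and 2 it was −11.6 and missed the threshold (adjusted p = 0.0676). At Klra7 the region 4.60 kb upstream (chr6:130237128-130238595) stood at 52.1 to 56.0 in WT control, 36.1 to 51.4 in WT stimulated, 35.9 to 41.0 in KO control and 57.3, 8.19 and 23.4 in KO stimulated. Those ranges overlapped, and the difference of −10.9 did not pass (adjusted p = 0.241, exact permutation). A deposited peak was there in all 6 stimulated libraries.

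Klra8 encodes Ly49H, the activating receptor that recognises a mouse cytomegalovirus protein. Its region 6.74 kb upstream (chr6:130135834-130136894) stood at 34.2, 20.5 and 20.1 in WT control, 47.6, 46.0 and 53.8 in WT stimulated, 14, 30.2 and 18.5 in KO control and 30.4, 43.8 and 23.4 in KO stimulated. WT libraries separated fully by treatment and KO libraries overlapped. The mean difference was 17.9 points higher in stimulated libraries (adjusted p = 0.0259, exact permutation). It missed the threshold without WT stimulated library 3 (16.7 points, adjusted p = 0.0534) and without KO stimulated libraries 1 and 2 (13.4 points, adjusted p = 0.117).

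Several weak regions were called in stimulated cells alone. Klra4, which encodes the activating receptor Ly49D, had its one region 4.27 kb inside the gene (chr6:130062740-130063487). No control library was called there, whereas WT stimulated libraries stood at 20.4, 23.5 and 16.6 and KO stimulated at 1.96, 0 and 20.6. WT control library 2 did list a weak peak, at fold 2.75 and −log10 q 2.23, but its equal list ended at 12.89. KO stimulated library 1 was called at fold 2.86 and −log10 q 1.31, so that call rested on its longer reach into weak peaks. Klra5 had a region 6.15 kb inside the gene (chr6:129906863-129907711), at 42.8, 24.6 and 10.4 in WT stimulated and 0, 10.9 and 19.2 in KO stimulated, again with no control call. The difference was 13.9 points at Klra4 and 18.0 at Klra5, each called in 5 of 6 stimulated libraries (rank adjusted p = 0.0401 and presence adjusted p = 0.0335 for both, exact permutation). Leaving out any 1 KO control library put Klra4 above the threshold, at adjusted p = 0.0711 to 0.0727, and leaving out any 1 WT control library did so for Klra5, at 0.0727 to 0.0779. A further such region, 2.58 kb upstream of Klra7 (chr6:130235556-130236898), had a difference of 9.11 points (adjusted p = 0.0401, exact permutation), lost without any 1 of the 6 control libraries. Controls were not without a peak there: 4 of 6 listed one below their equal lists, at fold 2.56 to 2.82. The 5 stimulated libraries listed it at 3.57 to 10.4. Every control rank percentile in these regions was 0, so leaving out a control library did not change the difference. It only made fewer rearrangements possible, so these losses do not point to particular control libraries.

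The region with the greatest gain lay 22.6 kb downstream of Klra9, inside the pseudogene Klra14-ps, a decayed Ly49 copy (chr6:130155062-130156685). No control library listed a peak there. WT stimulated libraries stood at 60.8, 50.6 and 43.0, at a deposited fold of 18.1 to 24.9, and KO stimulated at 6.10, 0 and 12.2, at 3.21 to 7.31 in the 2 libraries that listed one. All 3 WT stimulated libraries were above all 3 KO stimulated libraries. The gain was 28.8 points over both genotypes (rank adjusted p = 0.0401, presence adjusted p = 0.0335, exact permutation).

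On presence alone, 9 Ly49 regions could be tested and 7 passed: 4 were called more often in stimulated libraries and 3 less often. None of the 4 gains passed with lists of the 17555 strongest intervals (0 higher, 5 lower), with calls covering 50% of a region (0 higher, 4 lower) or with summit windows (0 higher, 4 lower). In the genome 33.8% of 8834 testable regions were called more often and 25.9% less often, 59.7% in all. The 3 called less often were those nearest Klra5, Klra6 and Klra1, where 4, 3 and 5 of 6 stimulated libraries still listed a peak. The 4 called more often were those in the bodies of Klra5 and Klra4, in Klra14-ps and 2.58 kb upstream of Klra7. When all deposited intervals were used, presence gave 0 calls in either direction. The 16 Ly49 regions that did not pass on rank comprised 9 that were tested and 7 whose values allowed no p of 0.05 or less. With lists of the 17555 strongest intervals the nearest upstream regions of Klra5 (−9.16 points) and Klra6 (−4.86), the region of Klra1 (−11.3) and that in Klra14-ps (3.80) no longer passed on rank. Counted by summit windows, neither did Klra10 (−1.24), the body of Klra5 (5.07) or Klra14-ps (19.8).

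The share of a region covered by called intervals was lower in stimulated libraries at 6 of 23 testable Ly49 regions and higher at none, against 11.2% lower and 11.1% higher of 38041 regions (adjusted p = 0.0275 for each of the 6, exact permutation). They were the regions of Klra5 at 4.46 kb, where the share was lower by 87.7 percentage points, Klra6 at 4.86 kb, Klra1, Klra9 and Klra3 at 4.58 kb, and Klra10, where it was lower by 49.1. Libraries without a call count as 0 in these means. At Klra10, where 5 stimulated libraries were called, covered widths were 915 to 1921 bases in controls and 290 to 684 in those libraries. With KO stimulated libraries 1 and 2 left out, none of the 6 passed, with a smallest adjusted p of 0.0511 and 0 calls over all regions. Without KO stimulated library 2 alone, 6 were lower and 3 higher. At an unadjusted p below 0.05 there were 13 regions, among them those in the bodies of Klra5 and Klra4 and in Klra14-ps, where the share was larger in stimulated libraries by 54.8, 47.7 and 58.2 percentage points.

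Summit positions were compared over the libraries in which a region was called. The strongest summit spanned 94 bases at Klra5 (4.46 kb), 61 at Klra6 (4.86 kb), 69 at Klra9 (3.32 kb), 78 at Klra3 (4.58 kb), 27 at Klra1 and 33 at Klra10. The Klra6 region was called in controls alone, and those of Klra5 and Klra1 in 1 stimulated library each. Elsewhere the span was wider: 243 bases at Klra8, 320 in the region 11.3 kb downstream of Klra3 and 2870 in the one 15.4 kb downstream of Klra9.

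Klra2 encodes Ly49B, a divergent member found on myeloid cells as well. Neither of its regions passed. The one 14.5 kb upstream (chr6:131261569-131262746) stood at 37.1 to 49.6 in controls and 37.8 to 52.9 in stimulated libraries, a difference of 0.15 (adjusted p = 0.979, exact permutation). The one 16.3 kb upstream (chr6:131263816-131264725) differed by −0.96 (adjusted p = 0.832, exact permutation). The 2 treatments overlapped widely at both.

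**Figure D3:**
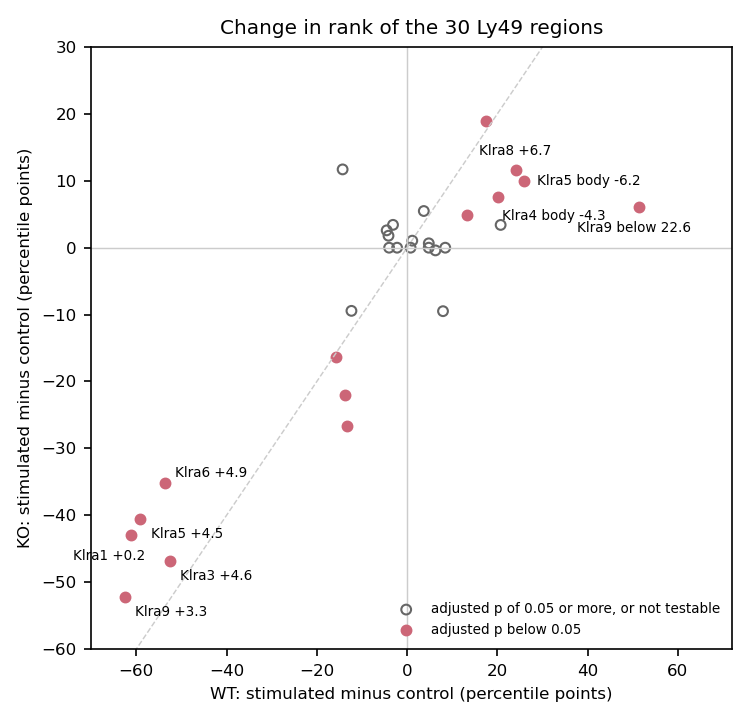
Stimulated minus control rank difference (percentile points) of the 30 Ly49 regions in WT (x axis) and KO (y axis) cells, filled where the treatment test passed at an adjusted p below 0.05. The dashed line marks equal responses. The 5 regions at lower left fell by more than 35 points in both genotypes, and the region downstream of Klra9 rose by 51.5 points in WT and 6.09 in KO.

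Between genotypes, Ly49 regions ranked lower in KO cells at most sites, but no single region passed the permutation test. KO minus WT was below 0 at 28 of 30 regions, against 52.9% of all 45082. Some of the 28 were called in WT libraries alone, which fixed their sign in advance. These lay 19.4 kb downstream, inside and 1.5 kb upstream of Klra9, 12.7 kb upstream of Klra7 and 14.4 kb downstream of Klra3. They also enter the medians and means over the 30 regions. The median was −5.66 points over the 30 and −0.26 over all. The exceptions were the region 14.5 kb upstream of Klra2 and the one 13.8 kb upstream of Klra5. None of 17 testable Ly49 regions passed on rank (exact permutation of genotype labels within treatment, 4 at an unadjusted p below 0.05, smallest adjusted p = 0.0857), none of 16 on width (8 unadjusted) and none of 1 on presence (0 unadjusted). The background was 0% of 33099, 33080 and 1817 regions. limma called 2 of the 30 lower and none higher, against 1.58% and 1.32% of all regions.

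The clearest of these was the region 16.3 kb upstream of Klra2. WT libraries stood at 53.1, 55.1 and 47.2 in control and 47.0, 43.4 and 51.4 in stimulated cells, and KO libraries at 36.9, 31.4 and 22.6 and at 37.4, 37.8 and 23.4. Every KO library was below every WT library, by −17.9 points (exact permutation p = 0.005, the smallest possible, adjusted p = 0.0857; limma SE 3.398, adjusted p = 0.0189). The other region limma called lay 11.3 kb downstream of Klra3 (chr6:130310758-130312474), 5.60 kb upstream of the pseudogene Klra13-ps, at −11.2 points (limma SE 2.56, adjusted p = 0.0438; exact permutation adjusted p = 0.121).

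In control cells alone, 9 of the 30 regions were lower in all 3 KO libraries than in all 3 WT libraries and 0 were higher, against 10.6% and 9.24% of all regions. They included the regions 4.46 kb upstream of Klra5, 4.86 and 8.41 kb upstream of Klra6, 3.32 kb upstream of Klra9, 4.58 kb upstream of Klra3 and 4.60 kb upstream of Klra7, and the one over the start of Klra1. In stimulated cells 8 were lower and 0 higher, against 11.1% and 8.34%. With 3 libraries against 3 no exact test can go below p = 0.10, so these are counts only. The mean rank percentile over the 30 regions was 27.3 ± 1.78 (SD, n = 3) in WT control, 21.4 ± 0.960 in KO control, 21.8 ± 1.97 in WT stimulated and 14.3 ± 0.398 in KO stimulated libraries. Within each treatment the genotypes did not overlap. NK marker regions also averaged lower in KO control libraries, 46.1 to 46.6 against 48.7 to 49.95 in WT control, and in KO stimulated libraries, 41.1 to 45.3 against 45.6 to 49.1 in WT stimulated. Their part in the result was not tested.

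**Figure D4:**
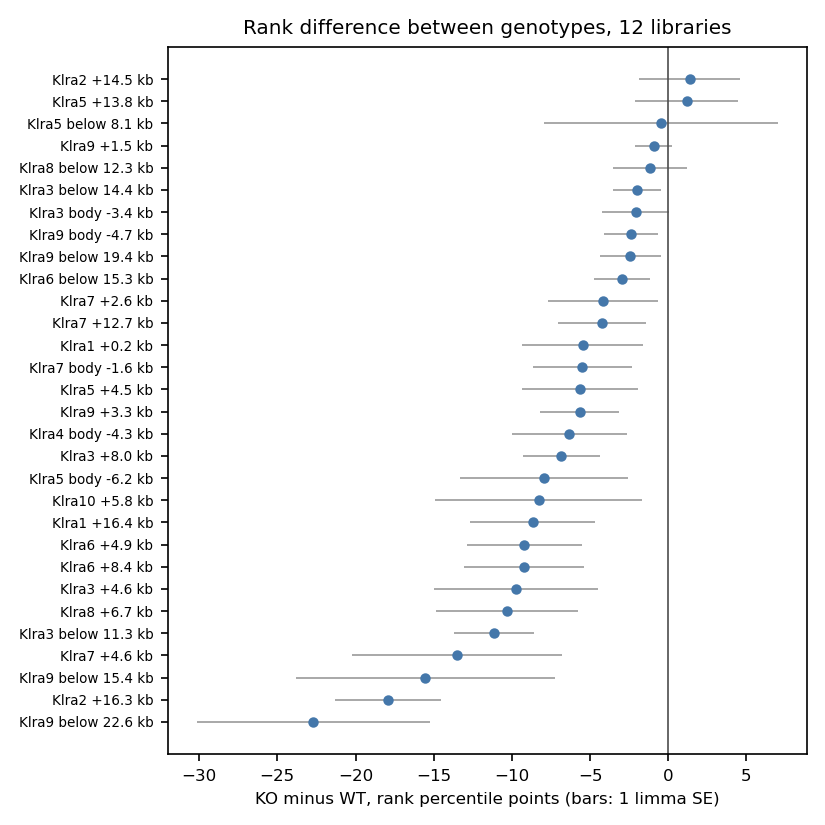
KO minus WT rank difference (percentile points) of each of the 30 Ly49 regions over 12 libraries, with bars of 1 limma standard error, ordered by size and labelled by gene and position in kb. 28 of 30 points lie below 0, among them the regions called in WT libraries alone.

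Deposited intervals were also counted. WT control libraries had 30.7 ± 1.53 (SD, n = 3) Ly49 intervals, WT stimulated 38.7 ± 0.577, KO control 24.3 ± 5.86 and KO stimulated 22 ± 7. The control groups overlapped, with 29 to 32 intervals in WT and 20 to 31 in KO. In WT the count was higher in stimulated than in control libraries, while the mean rank was lower. The whole lists were also longer in WT stimulated libraries, 55146 to 63128 distinct intervals against 42520 to 53440 in WT control. Whether the Ly49 count rose beyond list length was not tested. Those inside gene bodies numbered 3, 5 and 6 in WT control and 1, 0 and 1 in KO control libraries, and 9, 8 and 7 in WT stimulated against 4, 2 and 5 in KO stimulated. Neither pair of groups overlapped. The same counts by place were not made over all genes, so whether this is particular to the Ly49 genes was not tested. Lists of the control libraries held 42520 to 53440 distinct intervals in WT and 46971 to 53258 in KO, and KO stimulated libraries 1 and 2 had the shortest stimulated lists. The part of list length or peak strength in the gene-body counts was not tested. At Klra9, intervals 4.68 kb inside the gene were listed in 3 WT stimulated libraries and no other.

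**Figure D5:**
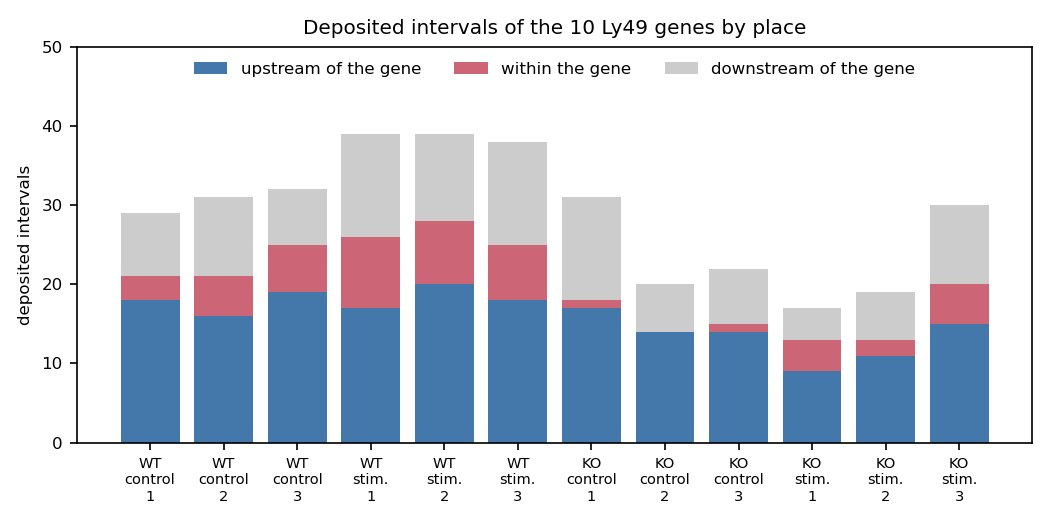
Deposited intervals of the 10 Ly49 genes in each of the 12 libraries, stacked by place: upstream of the gene, within it, or downstream. Bars start at 0. Gene-body intervals number 0 or 1 in KO control libraries and 7 to 9 in WT stimulated libraries.

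Whether the response to cytokines differed by genotype was tested with limma's interaction term on rank. It called 1 of the 30 Ly49 regions, against 2.18% of all 45082 (1.07% with the KO response above the WT response and 1.11% below). This was the region inside Klra14-ps, which rose by 51.5 points in WT and 6.09 in KO, a difference of −45.4 (SE 5.97, limma adjusted p = 0.00408). All 6 control libraries stood at 0 there, so the term compared 3 WT with 3 KO stimulated libraries. The 2 control groups had no spread, which lowers the variance limma used. With all deposited intervals the difference was −40.04 (limma adjusted p = 0.358). With the 17555 strongest it was −7.60 (limma adjusted p = 0.647), and it passed in neither. At the regions nearest Klra5, Klra6 and Klra1 the fall was smaller in KO by 18.2 to 18.6 points, from KO control levels that were lower to begin with, and none passed (limma adjusted p = 0.105 to 0.165). All WT stimulated libraries stood at 0 in these regions, although at Klra1 their deposited fold was above that of the KO stimulated libraries.

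The other genes of the Ly49 pathway, 29 in a list of further NK receptors, adaptors, phosphatases, ligands and transcription factors, had 172 regions. On presence, 26 could be tested, of which 7 were called more often and 7 less often in stimulated libraries, against 33.8% and 25.9% of all regions. On rank 147 could be tested, with 36 higher and 51 lower, against 22.4% and 29.1%. These counts were near the background. Among receptors, Klrc1, whose product NKG2A is the inhibitory partner of CD94, had 2 regions called more often, the larger by 71.7 rank points. Klra17, a further Ly49 gene just beyond Klra5, had 1, by 43.4 points. Among transcription factors, Tcf7, whose product TCF-1 is known to act at Ly49 genes, had 3 regions called less often, the largest by −61.0 points, and Runx3 2, the largest by −39.9. Nfil3, needed for NK cell development, had 1 region called more often (29.9 points) and Ets1 1 (22.3). Of signalling genes, Plcg2 had 1 called more often (31.6) and Lcp2 1 in each direction, the larger difference being 12.7. Inpp5d, the gene of the phosphatase SHIP-1, had 1 called less often (−12.4). Each of these passed the presence test at an adjusted p below 0.05 (exact permutation). Tyrobp, the gene of DAP12, and Ptpn6, the gene of SHP-1, had no region that passed on presence, but on rank 2 of 4 regions of Tyrobp and all 3 of Ptpn6 were lower in stimulated libraries.

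Across the 12 libraries the mean rank over the 30 Ly49 regions was most like that of Ergic1 (Pearson r = 0.953), Rasa3 (0.942) and Alpk2 (0.927) among 528 genes with at least 10 regions. The 12 points share library depth and treatment, so this is a description of likeness.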

How the data were processed

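Processed ATAC-seq peak lists, 1 per library, were used as deposited by the authors. Per the submitters' processing notes the build was mm10, the aligner among the tools named Bowtie2 (2.3.4.1) and the peak caller MACS2 (2.1.1.20160309). The notes also name SAMtools 1.15.1, FastQC 0.11.9, deepTools 3.4.2 and, for trimming software, cutadapt 4.1. The roles and settings of these tools, the handling of reads that match several places and any read shift are not given in the sources used here. The deposited columns held a score, the fold (ratio) over background, the −log10 of p and of q, and the summit offset, all the authors' values per peak. Read depth was not in the files.

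Summits of 1 interval were joined, the 35110 strongest distinct intervals of each library by −log10 q were kept, and intervals overlapping by at least 1 bp were merged into 45082 regions called in at least 2 libraries. A region was assigned to the closest protein-coding gene (RefSeq, GRCm38.p6) if its body lay at most 50 kb away. Presence, rank percentile and the share of the region covered were each tested by exact permutation within strata, with Benjamini-Hochberg adjustment at 0.05 over regions whose values allow a p of 0.05 or less. The smallest possible p was 0.005. limma 3.58.1 (R 4.3.3) gave the interaction and an alternative for rank. Python 3.11.15, numpy 2.4.6, pandas 2.3.3 and biopython 1.88 (promoter alignment) were used.

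In simulated data over 45082 regions with a shift of 30 percentile points, the permutation test recovered 94.7% (treatment) and 95.3% (genotype) of 8000 changed regions and 0% of 200, so it finds changes only where many regions change. limma's interaction recovered 43.5% of 200.

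Named regions are those past a threshold (the 12 of largest rank difference) and each gene's region of highest mean rank. Klra7's region 2.58 kb upstream, Klra2's 16.3 kb upstream, the regions downstream of Klra3 (11.3 kb) and Klra9 (15.4 kb) and the body interval of Klra9 fall outside this rule and were named after their values were seen. The members and lists were chosen with earlier results of these data known. Alternatives are given in the closing section. No pair of libraries was a duplicate: at most 0.173% of intervals were identical.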

Additional observations from a re-analysis of the deposited data

Results flagged for a closer look

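The response of 1 region to stimulation differed between the genotypes. At chr6:130155062-130156685, inside Klra14-ps and nearest to Klra9 among protein-coding genes, the KO response minus the WT response was −45.4 percentile points (SE 5.97, limma adjusted p = 0.00408). The rise was 51.5 points in WT and 6.09 in KO, and no control library of either genotype had a deposited peak there. With every control value at 0, the difference rested on the stimulated libraries, and both control groups entered limma's variance without spread. KO stimulated libraries 1 and 2 had the lowest −log10 q at the end of the equal lists. With both left out, which leaves 1 KO stimulated library assumed to vary like the other groups, the difference was −39.3 points (SE 6.74, limma adjusted p = 0.027). With any 1 library left out it was −49.6 to −40.7 points, with adjusted p-values from limma of 0.0026 to 0.0142. The call depended on list length: the difference was −40.04 (SE 15.7, limma adjusted p = 0.358) when all deposited intervals were ranked and −7.60 (SE 6.70, adjusted p = 0.647) with the 17555 strongest. In the latter the 1 Ly49 region called was another, 4.58 kb upstream of Klra3, at 25.1 points (adjusted p = 0.0291). The Klra14-ps difference passed with calls covering 50% of a region (−47.4) and with summit windows (−39.6). That region counts under Klra9 by distance alone.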

How the results depend on the processing

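Against 7 calls on presence, 14 on rank, 6 on width and 1 interaction, the counts of Ly49 regions changed as follows. With all deposited intervals, presence gave 0 calls and the interaction 2, neither of them in Klra14-ps. Lists of the 17555 strongest intervals gave 6 on rank (1 higher, 5 lower). Requiring calls to cover 50% of a region gave 4 on presence (all lower) and 8 on rank (1 higher, 7 lower). Summit windows gave 4 on presence (all lower) and 10 on rank (2 higher, 8 lower). Within 20 kb the interaction gave 0, since the Klra14-ps region lies farther from Klra9. Leaving out both KO stimulated libraries 1 and 2, chosen after seeing the data, gave 0 on width, 8 on presence and 14 on rank. limma gave 2 genotype calls where permutation gave 0. Leaving out 1 library at a time gave 7 to 8 on presence, 12 to 16 on rank, 4 to 9 on width and 1 to 2 on the interaction, with 2 without WT control 3, WT stimulated 3 or KO stimulated 3. Ranking by the deposited fold gave 7, 14, 6 and 1. None of the 14 rank differences past the threshold changed sign in the alternatives where they could be compared. Some had no matching region with lists of 17555 intervals or with summit windows. Leaving out a library could not change the sign where 1 treatment stood at 0 throughout. This held in Klra14-ps, the bodies of Klra4 and Klra5, 2.58 kb upstream of Klra7 and 4.86 kb upstream of Klra6. The rank differences of the Klra2 regions did change sign: with 1 library left out they ranged from −1.64 to 2.59 and from −2.89 to 1.40. Beyond the constructions named, the cause of these changes was not tested. The labels do not say that replicate numbers pair the libraries. Deviations of same-numbered libraries correlated at −0.06 to 0.22 (median 0.05), 5 of 18 pairs over 0.1, among them all 3 of WT control with KO stimulated, and 11 of 12 libraries correlated best with their own number, which is a hint from the data. With the replicate block, 64 rearrangements allow no p below 0.0312, and calls were 1 on presence, 0 on rank and 0 on width. Uncalled regions may hold signal below the 35110 strongest intervals.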
